A study of Mus musculus with 20 samples.

Results

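The genes described here are 8 genes of B cells and of the lymphoid follicles of the gut, Ms4a1, Cd79a, Cd79b, Pax5, Cr2, Cxcr5, Cxcl13 and Mzb1, out of 32991 genes measured in the colon of 20 mice. They were taken by name, and the level of each gene in a mouse was the sum of the FPKM (fragments per kilobase of transcript, scaled to the depth of the library) of its annotated transcripts. The colon wall holds small lymphoid follicles, in which B cells gather around stromal cells that secrete the chemokine Cxcl13 and are drawn there by its receptor Cxcr5. Cd79a and Cd79b are the signalling partners of the B cell receptor, Ms4a1 encodes the surface protein CD20, Pax5 is the transcription factor that maintains B cell identity, and Cr2 encodes a complement receptor of B cells and follicular dendritic cells. Mzb1 encodes a chaperone cofactor of the endoplasmic reticulum that is abundant in antibody-secreting plasma cells, which lie mostly outside the follicles.

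All animals were male C57BL/6 mice, with 5 mice and 1 library per mouse in each of 4 groups followed for 91 days. The Control group received double distilled water by gavage, and the PZH group received 250 mg/kg per day of PZH, the Chinese medicine formula Pien Tze Huang. The AOM/DSS group, labelled Model, received water by gavage, 1 dose of 12.5 mg/kg of the carcinogen azoxymethane (AOM) and 4 cycles of 2% dextran sodium sulfate (DSS) for 5 days, each followed by 2 weeks of water. The PZH + AOM/DSS group, labelled Model + PZH, received both, and the mouse numbers below are those of the sample titles. This regimen is a model of colitis-associated tumours, and the segment of colon sampled and the share of tumour or follicle in it are not given in the labels, so fewer B cells and less RNA per B cell cannot be told apart in these whole-tissue libraries.

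In GENCODE M21 (GRCm38, the build of the files), Ms4a1 lies at chr19:11249675-11266241, Cd79a at chr7:24897381-24902197, Cd79b at chr11:106311341-106314762, Pax5 at chr4:44524757-44710487, Cr2 at chr1:195136811-195176716, Cxcr5 at chr9:44511787-44561877 and Cxcl13 at chr5:95956951-95961068. Cd79a, Cxcl13 and Mzb1 have 1 annotated transcript each, and the others have 2 to 12. The depth estimated from the smallest steps of the values was 15.3 to 19.4 M fragments per mouse. The colon epithelial genes Cdh1, Vil1, Krt20 and Cdx1 were at 109.67 FPKM or more in all 20 mice, although Epcam, another epithelial gene, was listed at 0 in 13 of them, so a gene listed at or near 0 in these files is not thereby shown to be absent. Control mice 17 and 50 stood apart, with summed levels of 8 squamous epithelium markers of 411.8 and 329 FPKM. The other Control mice were at 4.33 to 6.18 FPKM, the PZH mice at 3.67 to 5.78 FPKM and the mice with AOM/DSS at 12.5 to 76.9 FPKM. Calls at an adjusted p under 0.05 in AOM/DSS against Control are given with and without Control mice 17 and 50. So are the fold changes of the tested members in PZH against Control. Ranges, means, medians and SDs of the Control group include both mice. No member was at 0 in any mouse. In the Control group the lowest mouse had an estimated 4.00 fragments for Cxcr5, 4.75 for Pax5, 7.00 for Cr2, 17.2 for Ms4a1 and at least 44.2 for each of the others, so the low ends of the first 3 genes are the least precise.

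RefSeq promoters were at hand for Cd79a, Pax5, Cr2 and Cxcl13, and are shown because the first 3 of these genes moved together across the mice and Cxcl13 did so less closely. Each window is written 5′ to 3′ on the gene's own strand in GRCm38.p6, up to 250 bases before the RefSeq start and cut where a GENCODE start lies further upstream. Capitals mark 2 motifs searched on both strands, the E-box CAGGTG and the PU.1-type motif GAGGAA.
Cd79a, chr7:24897247-24897380, plus strand: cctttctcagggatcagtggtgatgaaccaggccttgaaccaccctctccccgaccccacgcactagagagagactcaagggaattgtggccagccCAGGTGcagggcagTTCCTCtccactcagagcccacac
Pax5, chr4:44710695-44710944, minus strand: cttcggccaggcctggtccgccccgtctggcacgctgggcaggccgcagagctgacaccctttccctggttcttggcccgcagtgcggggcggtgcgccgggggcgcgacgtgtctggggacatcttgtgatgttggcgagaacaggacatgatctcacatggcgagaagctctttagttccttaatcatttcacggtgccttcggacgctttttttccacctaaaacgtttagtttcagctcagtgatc
Cr2, chr1:195176720-195176969, minus strand: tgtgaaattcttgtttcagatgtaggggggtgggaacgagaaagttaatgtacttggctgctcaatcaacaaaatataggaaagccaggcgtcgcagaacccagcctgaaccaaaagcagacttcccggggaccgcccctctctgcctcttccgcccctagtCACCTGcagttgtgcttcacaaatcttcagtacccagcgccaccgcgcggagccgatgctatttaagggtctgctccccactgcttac
Cxcl13, chr5:95956689-95956938, plus strand: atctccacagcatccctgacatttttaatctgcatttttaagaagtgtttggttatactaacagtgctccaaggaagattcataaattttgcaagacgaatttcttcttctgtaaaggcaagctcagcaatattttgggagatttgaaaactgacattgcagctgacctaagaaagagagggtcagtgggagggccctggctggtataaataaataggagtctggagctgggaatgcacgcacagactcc

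Cd79a held an E-box at -154 to -149 from its RefSeq start and a PU.1-type match on the other strand at -140 to -135, and these do not overlap. Cr2 held an E-box on the other strand at -88 to -83. The windows of Pax5 and Cxcl13 held neither motif, and none of the 4 held the octamer ATGCAAAT or the EBF-type motif CCCNNGGGA. Of 32851 mouse promoters in the RefSeq table, 17.2% held the E-box, 23.3% the PU.1-type motif, 5.6% the EBF-type motif and 1.6% the octamer, each in the full tabulated window. These matches are letters in a window and not measured binding.

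Genes of the B cell receptor and the B cell surface were low in most mice without AOM/DSS, and Control mouse 37 and PZH mice 8 and 27 were the exceptions. Cd79a was at 2.82, 28.4, 5.35, 7.65 and 2.74 FPKM in Control mice 17, 37, 41, 48 and 50, and at 23.6, 5.14, 19.4, 2.65 and 5.11 FPKM in PZH mice 8, 14, 27, 46 and 53. It was at 15.7, 33.6, 27.5, 13.2 and 15.2 FPKM in AOM/DSS mice 23, 30, 33, 44 and 52, and at 13.1, 15.5, 18.5, 14.97 and 13.1 FPKM in PZH + AOM/DSS mice 2, 13, 15, 35 and 36. Thus 7 of the 10 mice without AOM/DSS lay below every mouse with it, and the remaining 3 lay among the AOM/DSS mice.

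Cd79b, the partner of Cd79a in the receptor complex, was high in the same Control and PZH mice. Its level was 2.19, 28.0, 3.18, 6.30 and 1.81 FPKM in the Control mice and 19.9, 3.37, 17.7, 2.50 and 2.91 FPKM in the PZH mice, in the order of mouse numbers above. With AOM/DSS it was at 10.6, 22.2, 19.5, 11.3 and 8.74 FPKM, and with PZH + AOM/DSS at 9.08, 14.3, 20.9, 9.94 and 11.5 FPKM. Control mouse 37 had the highest Cd79b of all 20 mice, and again 7 of 10 mice without AOM/DSS lay below all 10 mice with it.

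Ms4a1 ranged over 33.02-fold among the 10 mice without AOM/DSS and over 4.44-fold among the 10 mice with it. Its level was 0.346, 11.4, 0.762, 2.52 and 0.420 FPKM in the Control mice and 8.51, 0.737, 6.89, 0.859 and 0.376 FPKM in the PZH mice. It was at 4.21, 10.1, 6.50, 4.59 and 3.15 FPKM with AOM/DSS and at 2.34, 4.44, 10.4, 3.45 and 4.09 FPKM with PZH + AOM/DSS. Here 6 of 10 mice without AOM/DSS lay below all mice with it, since Control mouse 48 was also within the range of the treated mice.

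**Figure D1:**
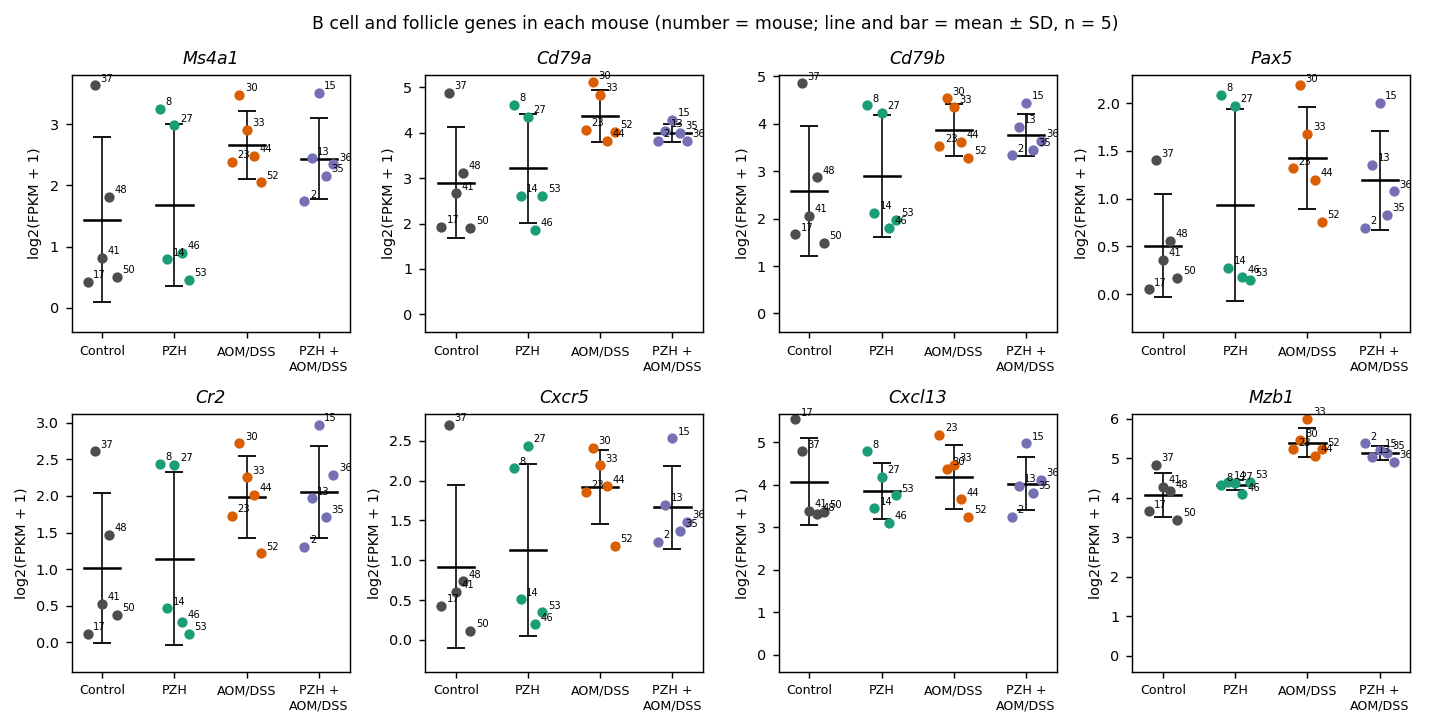
Level of each of the 8 genes in each mouse, as log2(FPKM + 1), by group, with 1 point per mouse, the mouse number beside it, and the group mean ± SD (n = 5). Control mouse 37 and PZH mice 8 and 27 sit far above the other mice of their groups for the B cell genes, whereas all 10 mice with AOM/DSS are above all 10 without it for Mzb1.

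Pax5 and the follicle genes Cr2 and Cxcr5 were lower in level and showed the same mice at the top. Pax5 was at 0.0363, 1.64, 0.284, 0.471 and 0.128 FPKM in the Control mice and at 3.24, 0.212, 2.93, 0.132 and 0.112 FPKM in the PZH mice. With AOM/DSS it was at 1.49, 3.55, 2.199, 1.29 and 0.690 FPKM, and with PZH + AOM/DSS at 0.621, 1.56, 3.0003, 0.774 and 1.11 FPKM. PZH mice 8 and 27 thus had more Pax5 than Control mouse 37, and the other 7 mice without AOM/DSS had less than any mouse with it.

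Cr2 was at 0.0836, 5.11, 0.443, 1.76 and 0.298 FPKM in the Control mice and at 4.41, 0.379, 4.36, 0.217 and 0.0840 FPKM in the PZH mice. It was at 2.32, 5.58, 3.77, 3.04 and 1.33 FPKM with AOM/DSS and at 1.47, 2.90, 6.84, 2.29 and 3.90 FPKM with PZH + AOM/DSS. The Cr2 sum was spread over 12 annotated transcripts, of which the one with the most FPKM held 22.4% of the sum on average, whereas 1 transcript held 81.6% or more for each of the other 7 genes.

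Cxcr5, the receptor for Cxcl13, was at 0.344, 5.49, 0.520, 0.667 and 0.0824 FPKM in the Control mice and at 3.46, 0.422, 4.41, 0.144 and 0.270 FPKM in the PZH mice. It reached 2.64, 4.32, 3.58, 2.81 and 1.27 FPKM with AOM/DSS and 1.35, 2.24, 4.79, 1.58 and 1.80 FPKM with PZH + AOM/DSS. The 2 PZH mice with high Cxcr5 lay within the AOM/DSS range or above it, and the other 3 were below 0.5 FPKM.

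Cxcl13, the ligand, did not separate the mice in this way. It was at 45.5, 26.4, 9.39, 8.88 and 9.23 FPKM in the Control mice and at 26.5, 9.85, 17.1, 7.56 and 12.5 FPKM in the PZH mice. With AOM/DSS it was at 34.97, 19.7, 21.0, 11.6 and 8.46 FPKM, and with PZH + AOM/DSS at 8.45, 14.7, 30.3, 13.1 and 16.3 FPKM. Control mouse 17 had the highest Cxcl13 of all 20 mice, while its Ms4a1 and Pax5 were the lowest of all. This mouse is one of the pair with squamous markers, and the part of those markers in its Cxcl13 level was not tested, although the other mouse of the pair, Control mouse 50, was at 9.23 FPKM.

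Mzb1 was the only one of the 8 genes in which no mouse with AOM/DSS overlapped a mouse without it. The share of all genes that separate the pooled mice in this way was not computed. For AOM/DSS against Control, 13% of all tested genes were higher without overlap, and for PZH + AOM/DSS against PZH 5% were. It was at 11.6, 27.5, 18.5, 16.99 and 9.83 FPKM in the Control mice and at 19.2, 19.97, 19.7, 16.0 and 20.2 FPKM in the PZH mice. With AOM/DSS it was at 36.5, 43.0, 63.0, 32.5 and 36.4 FPKM, and with PZH + AOM/DSS at 40.7, 31.8, 35.9, 34.4 and 29.3 FPKM. The lowest mouse with AOM/DSS, at 29.3 FPKM, was close above the highest mouse without it, Control mouse 37 at 27.5 FPKM.

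On the scale of log2(FPKM + 1), the SD between Control mice was 1.35 for Ms4a1, 1.22 for Cd79a, 1.37 for Cd79b and 1.03 for Cxcl13, against a median of 0.26 over 16936 genes. The same SDs among the PZH mice were 1.33, 1.205, 1.29 and 0.66, against a median of 0.22. Within the AOM/DSS group the SDs of Ms4a1, Cd79a and Cd79b were 0.55, 0.56 and 0.55, and within the PZH + AOM/DSS group they were 0.66, 0.19 and 0.45, lower than without AOM/DSS, a difference in spread that was not tested. Cxcl13 had SDs of 0.75 and 0.63 in those 2 groups. On this scale the SDs of Pax5 were 0.53 in the Control group, 1.00 with PZH, 0.54 with AOM/DSS and 0.52 when both were given. The value for the Control group was thus not above those with AOM/DSS. Pax5 reached 0.5 FPKM in 1 of 5 Control mice, and adding 1 compresses values that low. In FPKM its highest Control mouse was 45.3-fold above its lowest, which had an estimated 4.75 fragments, against 5.15-fold in the AOM/DSS group. For Mzb1 the SD was 0.55 in the Control group, 0.13 with PZH, 0.37 with AOM/DSS and 0.17 when both were given.

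Within each group 1 mouse tended to be highest for most of the 7 genes other than Mzb1. Of these 7 genes, 6 were highest in mouse 37 among the Control mice, 6 in mouse 8 among the PZH mice, 6 in mouse 30 among the AOM/DSS mice, and 7 in mouse 15 among the PZH + AOM/DSS mice. Cxcl13 was instead highest in Control mouse 17 and AOM/DSS mouse 23, and Control mouse 37 was highest of its group for Mzb1 as well. Mouse 2 of the PZH + AOM/DSS group was lowest for all 7 and yet highest of its group for Mzb1. With the mean of each group removed, the Pearson r between pairs of the 6 genes Ms4a1, Cd79a, Cd79b, Pax5, Cr2 and Cxcr5 over 20 mice ran from 0.88 to 0.98. Those of Cxcl13 with the same 6 genes ran from 0.41 to 0.58, and those of Mzb1 from 0.41 to 0.68. The 2 values of each point come from 1 library and share its depth, and these correlations are given as a description.

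**Figure D2:**
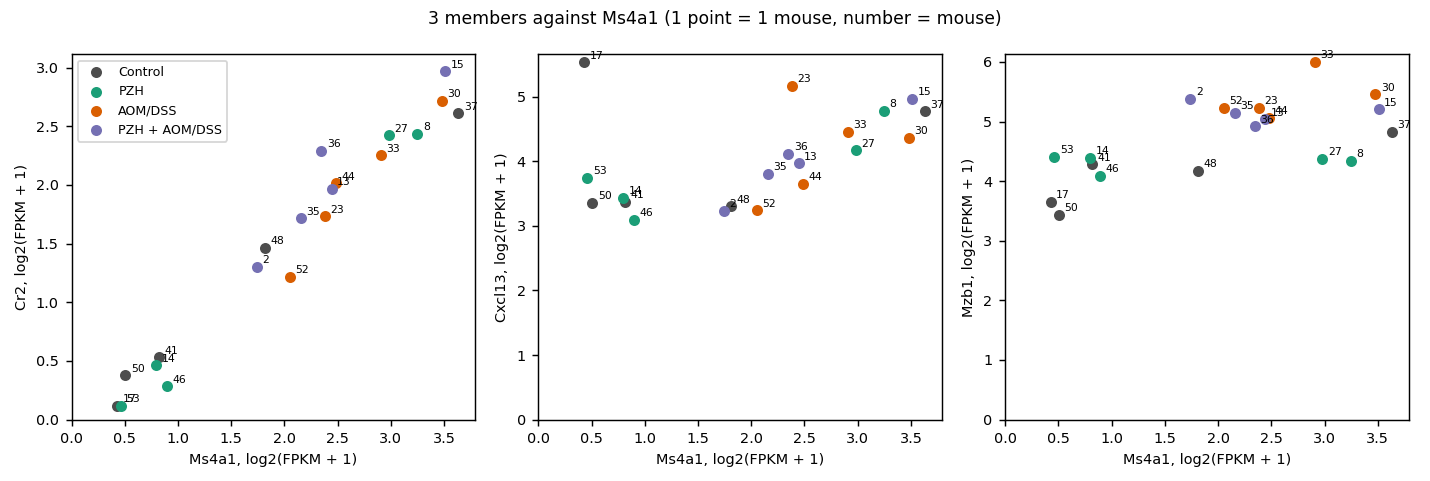
Cr2, Cxcl13 and Mzb1 against Ms4a1 in 20 mice, all as log2(FPKM + 1), coloured by group, with 1 point per mouse. Cr2 rises with Ms4a1 in every group, and Control mouse 17 has high Cxcl13 with low Ms4a1. Mzb1 is higher in every mouse with AOM/DSS than in any without it, but no mouse with AOM/DSS has Ms4a1 below 2.34 FPKM.

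Among 14095 other genes with a mean of at least 1 FPKM, the 9 named here, whose deviations were most like the mean of the 7 genes, were Ighd (r = 0.98), Fcmr (0.97), H2-Eb2 (0.97), Tnfrsf13c (0.97), Ifi209 (0.97), Fcer2a (0.96), H2-DMb2 (0.96), Blk (0.95) and Btla (0.95), over 20 mice. Ighd encodes the heavy chain of IgD, carried by naive B cells, Tnfrsf13c the receptor for the survival factor BAFF, Fcer2a the IgE receptor CD23, and Blk a kinase of the B cell receptor pathway. Ighd ranged from 0.488 to 25.4 FPKM and Fcer2a from 0.0392 to 6.92 FPKM. Most like Mzb1 were Bst2 (r = 0.81), Pou2af1 (0.79), Cd27 (0.77), Scfd2 (0.76) and Kptn (0.76). Pou2af1 is a coactivator of immunoglobulin gene transcription.

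The T cell list of 12 genes (Cd3d, Cd3e, Cd3g and others) moved with these mice as well. Its summed level was highest in the same mouse of each group, at 35.2 FPKM in Control mouse 37, 28.8 in PZH mouse 8, 50.8 in AOM/DSS mouse 30 and 40.6 in PZH + AOM/DSS mouse 15. The group medians of that sum were 11.4, 13.1, 34.6 and 30.6 FPKM. The myeloid sum was also highest in Control mouse 37 (402 FPKM) and PZH mouse 8 (352 FPKM). In the other groups it was highest in AOM/DSS mouse 44 and PZH + AOM/DSS mouse 35. Smooth muscle was highest in PZH mouse 8 and AOM/DSS mouse 30, but in Control mouse 50 and PZH + AOM/DSS mouse 13. Of the named mice, blood was highest in PZH mouse 8 alone. The part of T cells or of these other cells in the spread of the B cell genes was not tested.

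**Figure D3:**
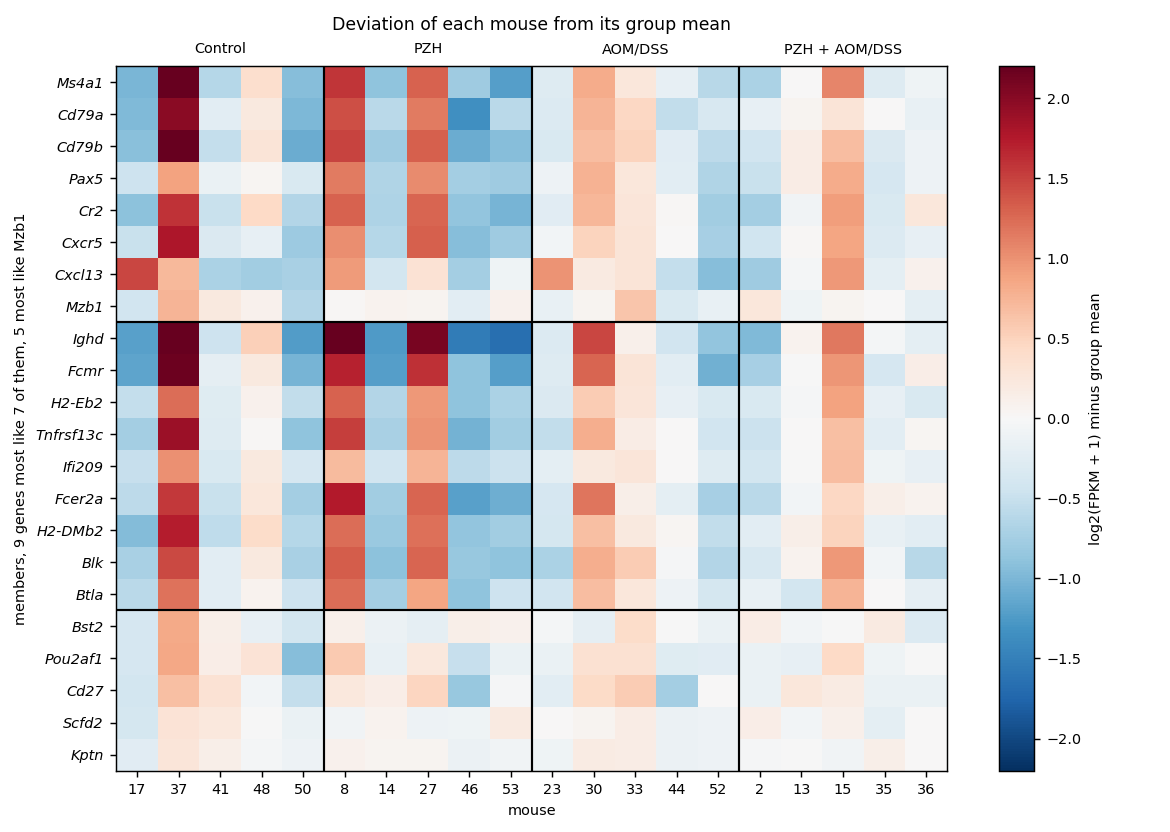
Deviation of each mouse from the mean of its group, in log2(FPKM + 1), for the 8 genes (top block), the 9 genes most like 7 of them (middle block) and the 5 most like Mzb1 (bottom block), with mice as columns. Red columns at Control 37, PZH 8, PZH 27, AOM/DSS 30 and PZH + AOM/DSS 15 run through the B cell genes, and Cxcl13 is also red at Control 17 and AOM/DSS 23.

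The comparison of the AOM/DSS and Control groups asked how the model changed these genes. All 8 had higher group means on the log2 scale with AOM/DSS, and 2 of the 8, Mzb1 and Pax5, passed the test at an adjusted p under 0.05, where 23.6% of 15812 tested genes passed in either direction and 16.4% passed as higher. Mzb1 rose from 16.9 ± 6.94 to 42.3 ± 12.2 FPKM (SD, n = 5 each), a log2 fold change of 1.32 (SE 0.26, limma adjusted p = 0.0052). Its groups did not overlap, as was so with a higher level for 13% of all tested genes. Pax5 rose from 0.512 ± 0.653 to 1.84 ± 1.10 FPKM, a log2 fold change of 0.92 (SE 0.30, limma adjusted p = 0.0495). Pax5 reached 0.5 FPKM in 1 of 5 Control mice and 5 of 5 AOM/DSS mice, so it passed the filter on low values only through the group where it is high, as Cr2 did with 2 and 5 mice. The call of Pax5 lay at the threshold, and it held when Control mouse 37 or AOM/DSS mouse 52 was left out and was lost when any of the other 8 mice was. Over all alternatives its limma adjusted p ran from 0.0127 to 0.229, and it was lost as well with median-of-ratios scaling, with no filter, with all 20 mice in 1 model and with the highest transcript alone.

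The other 6 genes did not pass. Cd79a was at 9.39 ± 10.8 FPKM in the Control group and 21.1 ± 8.98 FPKM with AOM/DSS, a log2 fold change of 1.47 (95% interval 0.32 to 2.63, limma adjusted p = 0.065). It passed with array weights (limma adjusted p = 0.0319) and with all 20 mice in 1 model (0.0484), where the adjusted p ran from 0.0037 to 0.302 over all alternatives. By the study's criterion of a fold above 2 and an unadjusted p under 0.05, Cd79a, Cd79b and Mzb1 passed, where 7.71% of all genes did. The study applied it to transcripts with DESeq, whereas here it was applied to gene sums with limma on log2(FPKM + 1). Adding 1 lowers the fold of low genes. Pax5 and Cxcr5 had an unadjusted limma p under 0.05 and missed only the fold, at log2 fold changes of 0.92 and 0.9995. The log2 fold changes were 1.28 for Cd79b (interval 0.01 to 2.55), 1.22 for Ms4a1 (-0.03 to 2.47), 1.00 for Cxcr5 (0.02 to 1.98) and 0.97 for Cr2 (-0.05 to 1.98), with limma adjusted p-values of 0.137, 0.149, 0.130 and 0.157. Cxcl13 was at 19.9 ± 16.1 and 19.1 ± 10.3 FPKM, a log2 fold change of 0.11 (interval -0.99 to 1.204, limma adjusted p = 0.90), and the sign of this value reversed with 4 of the 10 single mice left out. The median log2 fold change was 1.11 over the 8 genes and 0.09 over all genes tested.

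Control mouse 37 moved the count of calls the most among single mice. Without Control mouse 37, 7 of the 8 genes passed as higher, all but Cxcl13, where 22.8% of all genes passed in either direction. No remaining Control mouse reached 0.5 FPKM for Pax5, and mouse 48 alone did for Cr2. For Ms4a1 and Cxcr5, Control mice 41 and 48 did. These genes thus passed the filter of that fit only through the AOM/DSS group, where they are high. In that fit Cd79a had a log2 fold change of 1.97 and a limma adjusted p of 0.0037. Ms4a1 had a log2 fold change of 1.77 and a limma adjusted p of 0.0069, where the range was 0.0069 to 0.544. Leaving out any other single mouse gave 1 or 2 calls. With Control mice 17 and 50, which carry squamous markers, both left out, Mzb1 alone passed, where 17.8% of all genes did. Mzb1 passed with every single mouse left out, with limma adjusted p-values from 0.0020 to 0.0135.

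**Figure D4:**
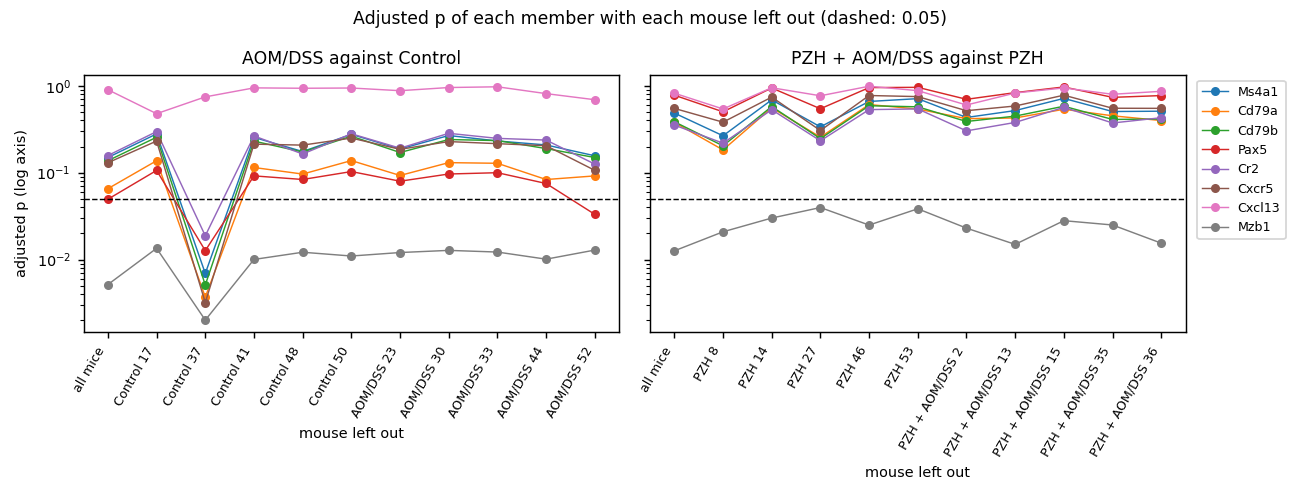
Benjamini-Hochberg adjusted p from limma (log axis) for each of the 8 genes, with all mice and with each mouse left out in turn, for AOM/DSS against Control (left) and PZH + AOM/DSS against PZH (right), where the dashed line is 0.05. On the left, 7 genes fall below the line without Control mouse 37, and on both sides Mzb1 stays below it in every fit.

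Markers of other cell types also differed between the AOM/DSS and Control groups. Of 6 smooth muscle genes 6 were lower with AOM/DSS, with a summed level of 996 to 1734 FPKM against 2244 to 5172 FPKM in the Control group, and 6 of 8 myeloid genes and 6 of 11 tested T cell genes were higher, where 16.4% of all tested genes were called higher and 7.23% lower. Without Control mice 17 and 50, 4 smooth muscle genes were lower, and 6 myeloid genes and 1 T cell gene (Cd247) higher. Of all genes, 17.8% were called in that fit. Without Control mouse 37 the counts were 6, 7 and 8, where 22.8% were called. Among the Control mice, Cd5 and Cd247 reached 0.5 FPKM in mouse 37 alone, and Cd3d in mice 37 and 41 alone. These T cell genes thus passed the filter only through the AOM/DSS group. FPKM is relative to all fragments of a library. The part of these marker shifts in the values of the B cell genes was not tested.

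The PZH + AOM/DSS group against the PZH group gave the same contrast in 10 other mice that all received PZH. Mzb1 was 1 of the 8 genes to pass, where 2.42% of 15636 tested genes passed in either direction and 1.74% passed as higher. It rose from 19.0 ± 1.73 to 34.4 ± 4.32 FPKM (SD, n = 5 each), a log2 fold change of 0.82 (SE 0.11, limma adjusted p = 0.0126), with no overlap between groups, as was so with a higher level for 5% of all genes. It passed with every single mouse left out, with limma adjusted p-values from 0.0150 to 0.0397. By the study's criterion none of the 8 passed, where 3.13% of all genes did. The other 7 had log2 fold changes from 0.17 for Cxcl13 to 0.91 for Cr2, and none of these passed. Pax5, Cr2 and Cxcr5 each reached 0.5 FPKM in 2 of 5 PZH mice and 5 of 5 PZH + AOM/DSS mice. They thus passed the filter on low values only through the group where they are high. Cd79b, at 0.86, had an interval of -0.32 to 2.03, so neither no change nor a rise of the size seen without PZH was outside it.

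PZH against Control asked what the formula did without AOM/DSS. None of the 6 genes that passed the filter on low values was called by limma at an adjusted p under 0.05 or at an unadjusted p under 0.05, where 0.00645% and 8.84% of 15506 genes were, and none was called by limma on estimated fragments with voom weights. The log2 fold changes were 0.24 for Ms4a1 (95% interval -1.39 to 1.86), 0.31 for Cd79a (-1.16 to 1.79), 0.31 for Cd79b (-1.30 to 1.93), 0.21 for Cxcr5 (-1.07 to 1.49), -0.22 for Cxcl13 (-1.27 to 0.83) and 0.24 for Mzb1 (-0.26 to 0.75). Each of these 6 signs turned when Control mice 17 and 50 were left out. Pax5 and Cr2 reached 0.5 FPKM in 3 and 4 of the 10 mice and so failed the filter. Their mean differences on the log2 scale were 0.42 and 0.12, with two-sided exact permutation p-values of 0.365 and 0.913 over all splits of the 10 mice, where the smallest possible p is 0.00794.

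PZH + AOM/DSS against AOM/DSS asked what PZH did in the model. None of the 8 genes was called by limma at an adjusted p under 0.05 or at an unadjusted p under 0.05, where 0.00629% and 11.7% of 15888 genes were, and none with voom weights. Cd79a was at 21.1 ± 8.98 FPKM with AOM/DSS and 15.05 ± 2.19 FPKM with PZH + AOM/DSS, a log2 fold change of -0.38 (95% interval -0.92 to 0.16). Mzb1 was at 42.3 ± 12.2 and 34.4 ± 4.32 FPKM, a log2 fold change of -0.26 (-0.64 to 0.12). The other values ran from -0.25 for Cxcr5 (-0.88 to 0.38) to 0.06 for Cr2 (-0.69 to 0.81), and the median over the 8 genes was -0.23 against -0.04 over all genes. Each interval includes 0 and changes up to its bounds in either direction.

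The interaction, the difference between the effect of AOM/DSS with PZH and without it, was not called for any of the 8 genes by limma at an adjusted or an unadjusted p under 0.05, where 0.0118% and 10.3% of 16936 genes were called, nor with voom weights. Its value for Mzb1 was -0.50 (95% interval -1.12 to 0.12, limma adjusted p = 0.58), which is the gap between 1.32 without PZH and 0.82 with it. For Ms4a1 it was -0.46 (-2.26 to 1.35) and for Cxcl13 0.06 (-1.30 to 1.42).

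**Figure D5:**
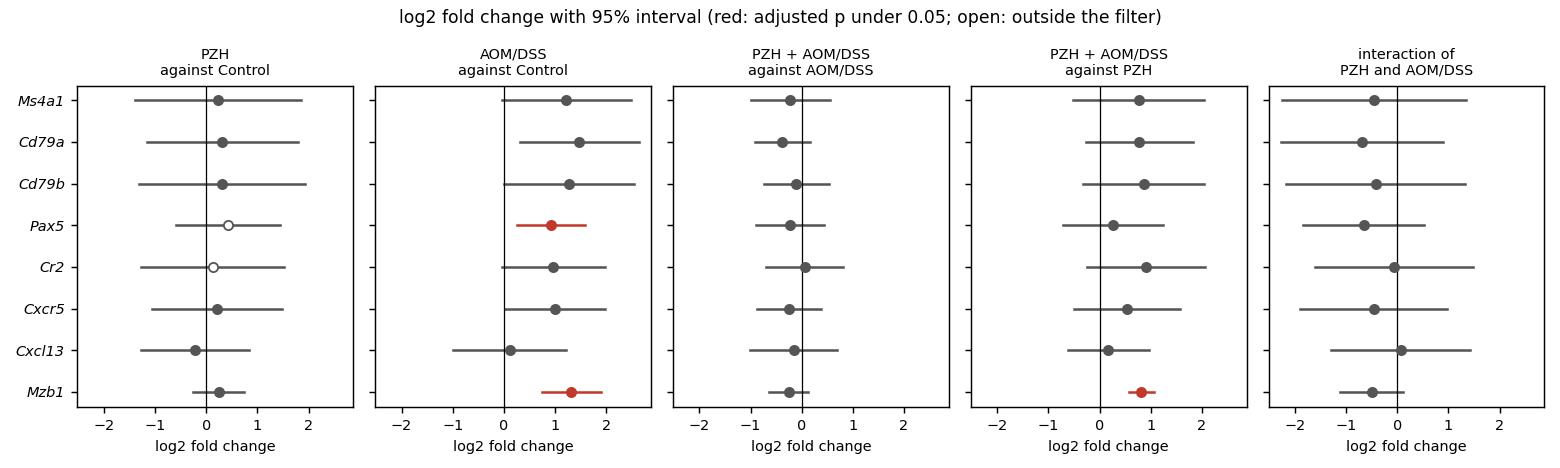
log2 fold change of each of the 8 genes with its 95% interval in the 4 comparisons and the interaction, from limma on log2(FPKM + 1), with n = 5 mice per group. Red marks an adjusted p under 0.05 (Pax5 and Mzb1 in AOM/DSS against Control, Mzb1 in PZH + AOM/DSS against PZH), and open points are genes outside the filter on low values.

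Other genes of the same pathways were read from lists. Of 23 B cell identity genes, all tested, 4 were higher with AOM/DSS than in the Control group and none lower, where 16.4% of all genes tested were called higher, and the share of the list was close to that. Among the 4 were Pou2af1, Bcl11a and Siglecg with log2 fold changes of 1.16, 0.71 and 0.65, and the median over the 23 was 0.71, against 0.09 over all genes. Siglecg passed the filter only through the AOM/DSS group, with 1 Control mouse at 0.5 FPKM or more. Without Control mouse 37 the count was 14, where 22.8% of all genes were called in either direction, and without Control mice 17 and 50 it was 1, Bcl11a, where 17.8% were. Of 17 genes of lymphoid follicle organisation, 14 passed the filter and 6 of these were higher, among them the cytokines Tnf (1.91) and Ltb (1.77), which drive follicle formation, the lymphocyte homing receptor Ccr7 (1.34) and Gp2 (1.25), a marker of the epithelium over follicles. Gp2 too passed the filter only through the AOM/DSS group, with 1 Control mouse at 0.5 FPKM or more. Without Control mouse 37, 8 were higher, and without Control mice 17 and 50, 2 were, Tnf and Ccr7. Of 8 germinal centre genes, 5 passed the filter and 2 were higher, the receptor S1pr2 (0.69) and the transcription factor Bcl6 (0.69). Without Control mice 17 and 50 these 2 were called again, and without Control mouse 37 there were 3.

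Some plasma cell genes were called in both arms, as Mzb1 was. Of 11 genes, all tested, 6 were higher with AOM/DSS than in the Control group, where 16.4% of all genes were, among them Igha (1.56), which encodes the heavy chain of IgA, Igkc (1.47), a light chain, Prdm1 (0.96) and Irf4 (0.77), which are transcription factors of plasma cells. The 6 were also called without Control mouse 37, and 4, with Igha, Igkc and Prdm1 among them, were called without Control mice 17 and 50. Igha was at 1609 ± 439 FPKM in the Control group and 4839 ± 1870 FPKM with AOM/DSS. In PZH + AOM/DSS against PZH, 2 of the 11 were higher, Igkc with a log2 fold change of 1.39 and Igha with 1.17, where 1.74% of all genes were. In the same comparison 3 of 11 tested T cell genes (Cd3e, Cd3g and Cd4) and 1 of 7 tested myeloid genes (Cd68) were higher. With 1 mouse left out, 0 to 2 of the T cell genes were called, whereas Igha, Igkc and Cd68 were called in every such fit. The share of all genes called in these fits ran from 0.35% to 2.74%. None of the 23 B cell identity genes, of the 14 tested follicle genes or of the 4 tested germinal centre genes was called there by limma, with 4, 4 and 2 of them at an unadjusted p under 0.05, where 20.9% of all genes were. In PZH against Control and in PZH + AOM/DSS against AOM/DSS none of the genes of these 4 lists was called at an adjusted p under 0.05. At an unadjusted p under 0.05, 1 of 11 plasma cell genes was higher with PZH than in the Control group, where 8.84% of all genes passed in either direction. With PZH + AOM/DSS, 3 of 15 tested follicle genes and 1 of 5 tested germinal centre genes were lower than with AOM/DSS, where 11.7% of all genes passed.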

How the data were processed

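RNA-seq of rRNA-depleted colon RNA was done on 1 library from each of 20 mice. Per the study's methods, reads were filtered with NGSQC, aligned to mm10 with HISAT2, and assembled and quantified with StringTie. The deposited values are FPKM per transcript, made by the authors, for 118434 transcripts in each file, of which 22252 were assembled without an Ensembl ID and are not in the gene sums, so fragments that StringTie gave to them are missing from the values here. Of 96182 Ensembl transcripts, 96032 were found in GENCODE M21 (GRCm38) and summed to 32991 genes. Read counts were not used here. The smallest steps of the FPKM values gave an estimated depth, with 45.6 to 53.6% of low values within 0.02 of a whole step, so no counts were recovered.

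Differences were tested with limma 3.58.1 in R 4.3.3 (lmFit and eBayes with an intensity trend) on log2(FPKM + 1), for genes at 0.5 FPKM or more in at least 5 mice of the fit, with Benjamini-Hochberg adjustment over all genes tested and calls at an adjusted p under 0.05. A fold change on this scale understates the change of low genes. Each comparison used its 10 mice, and the interaction used 20. The study tested with DESeq, which needs counts and was not used on these FPKM values. The tests were tried on simulated data first. The alternatives were median-of-ratios scaling, other filters, a pseudocount of 0.1, array weights, 1 model of all 20 mice, voom on estimated fragments, the study's criterion (fold above 2 and unadjusted p under 0.05), the highest transcript of each gene, and each mouse left out. Leaving out Control mice 17 and 50 together was added after seeing the data.

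The members and the lists were chosen with earlier results of these data known. Named from a pathway list were up to 4 called genes with the largest log2 fold change in AOM/DSS against Control, and the genes most alike were ranked by Pearson r after removing group means, among genes with a mean of at least 1 FPKM. One gene that these rules name is not reported here. Values were compared between all 190 pairs of mice, and at most 0.0867% of genes were equal in a pair, so each library was counted as a separate mouse. The labels place the tissue as colon, while the extraction text names another organ, and the epithelial genes above were high in all mice. Ccl19 and Ccl21a each had 2 gene IDs with near-identical copies, and the copy with the higher mean was used. The labels give no batch.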

Additional observations from a re-analysis of the deposited data

Results flagged for a closer look

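With 8 genes in 4 groups, 32 sets of 5 mice were checked for a mouse whose gap to its nearest neighbour was large. The gap was taken against the range of the group, on FPKM and not on the log2 scale of the tests. For normally distributed values, chance gives such a gap in about 1 set in 20, or 1.6 of these. A high mouse stands out more on FPKM than on the log2 scale, so that rate need not hold here. There were 8 such values, and the genes share their mice, so the 8 are not independent. For both reasons the 8 cannot be set against the 1.6. Control mouse 37 stood above the rest of its group for Ms4a1 at 11.42 FPKM, Cd79a at 28.4 FPKM, Cd79b at 28.0 FPKM, Pax5 at 1.642 FPKM and Cxcr5 at 5.495 FPKM. PZH + AOM/DSS mouse 15 stood above its group for Ms4a1 at 10.38 FPKM and Cxcr5 at 4.791 FPKM. For Mzb1 the PZH mice lay close together, and mouse 46, at 16.0 FPKM, stood below the other 4. PZH mice 8 and 27 were not singled out by this check, since with 2 high mice neither is alone.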

How the results depend on the processing

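No paired analysis was possible because the groups share no mouse number. Of the 8 genes in AOM/DSS against Control, 2 were called, and 1 was called with median-of-ratios scaling, with no filter, with a filter of 1 FPKM in every mouse of 1 group, with the highest transcript of each gene and without Control mice 17 and 50, and 1 to 7 with 1 mouse left out. It was 3 with array weights (Cd79a added) and 3 by the study's criterion (Cd79a, Cd79b and Mzb1), and with all 20 mice in 1 model it was 2, Cd79a and Mzb1. That scaling moved the share of higher calls over all genes from 69.4% to 54.4%, and the called members were higher under both. In PZH + AOM/DSS against PZH, Mzb1 was called in every fit with 1 mouse left out (1 gene throughout), and 0 genes met the study's criterion of a fold above 2. The other comparisons gave 0 called members in every alternative.

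Over all genes, AOM/DSS against Control gave 3739 calls, 1219 by the study's criterion and 2516 to 3562 with 1 mouse left out. PZH + AOM/DSS against PZH gave 378, 1002 with all 20 mice in 1 model, 90 with no filter and 54 to 423 with 1 mouse left out. PZH + AOM/DSS against AOM/DSS gave 1, 89 with all 20 mice, 2 with array weights, 382 by the study's criterion, 0 with no filter and 1 to 808 with 1 mouse left out. PZH against Control gave 1, 0 with all 20 mice, 107 by the study's criterion and 1 to 2 with 1 mouse left out. The interaction gave 2, 130 with array weights, 438 by the study's criterion, 0 with no filter, with a pseudocount of 0.1, with voom and without Control mice 17 and 50, and 0 to 476 with 1 mouse left out.

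Signs turned in values that were not called. Without Control mice 17 and 50, the log2 fold changes in PZH against Control were -0.41 for Ms4a1, -0.34 for Cd79a, -0.36 for Cd79b, -0.22 for Cxcr5, 0.0297 for Cxcl13 and -0.11 for Mzb1, and the interaction was 0.19 for Ms4a1, 0.25 for Cd79b, 0.45 for Cr2 and -0.19 for Cxcl13. Cxcl13 was at -0.0034 in AOM/DSS against Control with median-of-ratios scaling, and its interaction was -0.15 with array weights. With 1 mouse left out, the values in PZH against Control ran from -0.16 to 0.78 for Ms4a1, -0.038 to 0.81 for Cd79a, -0.059 to 0.88 for Cd79b and -0.45 to 0.15 for Cxcl13. In PZH + AOM/DSS against AOM/DSS they ran from -0.28 to 0.062 for Cd79b, -0.17 to 0.25 for Cr2 and -0.39 to 0.090 for Cxcl13. Those of Cxcl13 ran from -0.14 to 0.48 in AOM/DSS against Control and from -0.065 to 0.41 in PZH + AOM/DSS against PZH, and the interaction ran from -0.46 to 0.26 for Cr2 and from -0.30 to 0.31 for Cxcl13. The cause of these changes was not tested. With 5 mice per group and 1 library each, the number of mice and, for Pax5, Cr2 and Cxcr5, the few fragments in the low mice limit what these data can show.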
